A study of Mus musculus with 36 samples.

Results

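Cholangiocyte and ductular reaction genes are genes that liver tissue transcribes mainly in the epithelium of its bile ducts, or that injured liver switches on in duct-like cells. The 8 examined here, Sox9, Epcam, Anxa13, Prom1, Pkhd1, Cftr, Cldn4 and Cldn7, were taken by symbol from a table of raw read counts for 32544 gene symbols. Whole livers of male C57BL/6N mice without any transgene were sequenced, from 36 libraries in 6 groups of 6. The mice were 8 to 10 weeks old when the treatment began. Mice of 3 groups were injected intraperitoneally with carbon tetrachloride (CCl4), a solvent that hepatocytes turn into radicals, 2 times per week for 2, 6 or 12 months, each dose being 1 g per kg body weight with olive oil as the carrier. Mice of another 2 groups received olive oil alone for 2 or 12 months. Livers of all these groups were taken 6 days after the final injection. The last group, at month 0, is titled control although its treatment label says olive oil. No oil group of month 6 was analysed here, so month 6 CCl4 livers were set against both oil groups, averaged as log values.

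Cholangiocytes line the bile ducts, secrete chloride and bicarbonate into bile, and carry a primary cilium that senses its flow. Injured livers can show a ductular reaction, in which small ducts and cells with mixed hepatocyte and duct features multiply around the portal tracts. Most of the genes examined here are not exclusive to ducts: Epcam, Cftr, Cldn4, Cldn7 and Prom1 are also known from intestinal epithelium, and the exocrine pancreas has ducts of its own.

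Library totals ran from 19403247 to 28917545 counts, and 15338 genes passed the filter on low counts. The unit of level is CPM, for which counts were brought to a common library total with TMM factors, and levels are only compared within a gene. One library stood apart: month 2 CCl4 replicate 6 had the highest level of all 36 libraries for 16 of 25 intestinal genes. Its level of Sis, the sucrase-isomaltase of the small intestine, was 326 CPM, against at most 15.7 CPM in the other 35 libraries. It also had the highest level of Epcam, Cftr and Cldn4, so the results on these 8 genes that draw on month 2 CCl4 are given with and without it. Transcripts of pancreatic acinar cells varied widely in all groups: the summed level of 14 acinar genes lay between 38.8 and 3996 CPM in month 12 CCl4 livers and between 121 and 30183 CPM in month 12 oil livers, and edgeR called none of them at month 2, 6 or 12, with none at an unadjusted p below 0.05.

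The promoter of Prom1 is shown because the gene rose at month 12 and its window holds a motif of an epithelial transcription factor family. The sequence is from RefSeq (build GRCm38.p6), 250 bases before to 50 bases after the start of transcription, 5′ to 3′ on the strand of the gene. Windows were found for 6 of the 8 genes, Sox9 and Anxa13 having none, 8 windows in all. The motif searched on both strands was AACCNGTT, that of the grainyhead-like factors, which include Grhl2. The capitals mark this motif, found on the opposite strand with its left end 122 bases before the start.
Prom1, chr5:44101687-44101986, minus strand: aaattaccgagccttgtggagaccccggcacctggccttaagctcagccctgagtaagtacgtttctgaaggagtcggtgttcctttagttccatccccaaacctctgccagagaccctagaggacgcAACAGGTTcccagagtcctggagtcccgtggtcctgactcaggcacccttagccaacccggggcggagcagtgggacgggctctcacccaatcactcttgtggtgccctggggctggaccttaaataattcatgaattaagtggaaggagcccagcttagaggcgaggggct
This motif occurred in 686 of 32851 promoter windows of the mouse (2.09%). A second Prom1 window also held it, 45 bases before its start, and the windows of Epcam, Pkhd1, Cftr, Cldn4 and Cldn7 did not. These matches describe the letters of the windows only.

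After 12 months of CCl4, 7 of the 8 genes were higher than in month 12 oil livers by edgeR's quasi-likelihood test (a Benjamini-Hochberg adjusted p, taken over every tested gene, below 0.05). The increases ran from 2.47-fold for Pkhd1 to 47.5-fold for Anxa13, and Sox9 was the exception. Of the 7, Cftr and Cldn4 passed the filter on low counts only through the month 12 CCl4 group. Their calls and their separation are thus partly set by that selection. This limit holds for each count of the 8 genes below that uses month 12 CCl4 livers. Among all tested genes 49.1% were called at month 12 and 25.9% were called higher. In each of the 7, every month 12 CCl4 liver exceeded every month 12 oil liver, a separation found for 12.1% of tested genes. For these 7, the 6 month 12 CCl4 livers also exceeded each of the 29 other libraries that remain when month 2 CCl4 replicate 6 is set aside. The share of all tested genes with this wider separation was not computed, so how unusual it is cannot be said. In bulk tissue, fewer cells of a type and less RNA per cell cannot be told apart, and likewise for more cells and more RNA per cell.

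**Figure D1:**
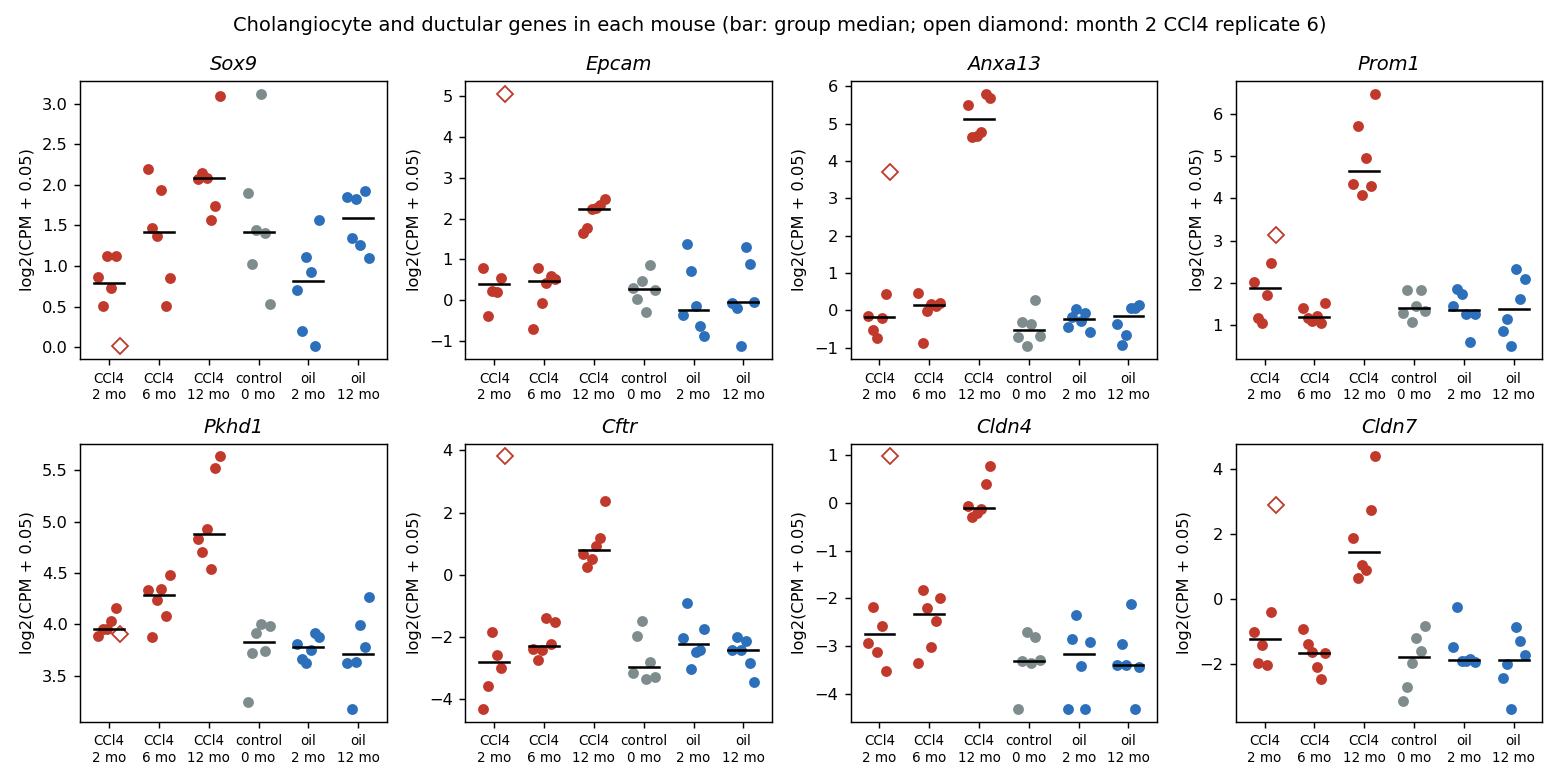
Level of each gene in each of the 36 livers, as log2(CPM + 0.05), by group; points are mice, bars are group medians, and the open diamond is month 2 CCl4 replicate 6. The month 12 CCl4 livers stand above the filled points of the other groups in all panels except Sox9; the diamond stands above all 6 of them for Epcam, Cftr and Cldn4, and for Cldn7 (7.47 CPM) below the highest of them alone.

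Sox9 (chromosome 11, 112782224 to 112787760) encodes the transcription factor that marks duct cells and their progenitors. It had 2.91, 4.18 and 8.50 CPM (lowest, median, highest) in month 12 CCl4 livers, against 2.10, 2.99 and 3.74 CPM in month 12 oil livers. The groups overlapped, and the highest CCl4 value came from replicate 6. Its log2 fold change of 0.63 (SE 0.34, adjusted p = 0.123) did not pass the test. With scaling by library totals alone it was 1.18 (adjusted p = 0.00231), a scaling that moves the median tested gene by 0.56.

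Epcam (chromosome 17, 87635979 to 87651129) encodes an adhesion protein of epithelial cells that hepatocytes normally lack. Month 12 CCl4 livers had 3.09, 4.69 and 5.56 CPM (lowest, median, highest) and month 12 oil livers had 0.408, 0.917 and 2.44 CPM. No liver of the oil group reached the lowest CCl4 liver, with a gap of 1.27-fold. Epcam rose by 1.85 in log2 terms (SE 0.66, adjusted p = 0.0203). Without month 2 CCl4 replicate 6 in the fit the SE was 0.35 and the adjusted p = 4.91e-05, with 49% of all tested genes called. Without month 12 oil replicate 3 the call was lost (1.65, adjusted p = 0.0513).

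Prom1 (chromosome 5, 43993620 to 44102032) encodes prominin-1, also called CD133, a protein of membrane protrusions used as a marker of progenitor cells. It had 16.9, 25.5 and 88.8 CPM (lowest, median, highest) in month 12 CCl4 livers, against 1.36, 2.60 and 4.97 CPM in month 12 oil livers. The lowest CCl4 liver was 3.40-fold above the highest oil liver. Prom1 rose by 3.70 in log2 terms (SE 0.38, adjusted p = 1.47e-09).

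Anxa13 (chromosome 15, 58341471 to 58389244) encodes annexin A13, a calcium-dependent membrane-binding protein known from the apical membrane of intestinal and kidney epithelium. Its GENCODE vM21 entry is classed as a processed transcript, while those of the other genes examined are classed as protein coding. Month 12 CCl4 livers had 25.2, 36.2 and 55.9 CPM (lowest, median, highest) and month 12 oil livers had 0.475, 0.860 and 1.05 CPM. This was the widest gap of the 8 genes, the lowest CCl4 liver being 23.99-fold above the highest oil liver. Anxa13 rose by 5.57 in log2 terms (SE 0.57, adjusted p = 1.39e-09).

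Pkhd1 (chromosome 1, 20057779 to 20618064) encodes fibrocystin, a protein of the cholangiocyte cilium whose loss gives recessive polycystic kidney disease with malformed bile ducts. It had 23.2, 29.4 and 49.7 CPM (lowest, median, highest) in month 12 CCl4 livers, against 8.99, 13.04 and 19.2 CPM in month 12 oil livers. The groups were close but did not overlap, with a gap of 1.21-fold. Its log2 fold change of 1.31 was the smallest of the 7 called, with a small error (SE 0.16, adjusted p = 5.12e-08). The GENCODE vM21 annotation places other genes within Pkhd1, Prom1 and Cftr, among them antisense ones, and the sources used here do not say whether counting used the strand, so reads of such partners cannot be told apart.

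Cftr (chromosome 6, 18170687 to 18322768) encodes the chloride channel through which cholangiocytes drive fluid into bile. Its counts were low: 391 over the 6 month 12 CCl4 livers and 18 over the 6 month 12 oil livers. The CCl4 livers had 1.13, 1.68 and 5.10 CPM (lowest, median, highest), against 0.0420, 0.136 and 0.198 CPM in oil livers. All CCl4 livers were above all oil livers, with a log2 fold change of 4.02 (SE 1.03, adjusted p = 0.00161). Cftr and Cldn4 passed the filter on low counts only through the month 12 CCl4 group, so their being tested at all rests on that group being high.

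Cldn4 (chromosome 5, 134945119 to 134946934) and Cldn7 (chromosome 11, 69964779 to 69967885) encode claudins, the strand-forming proteins of tight junctions. Cldn4 had 188 counts over the month 12 CCl4 livers and 9 over the month 12 oil livers, with 0.767, 0.881 and 1.66 CPM (lowest, median, highest) in CCl4 livers, against 0, 0.0455 and 0.181 CPM in oil livers. Cldn4 rose by 3.90 in log2 terms (SE 0.73, adjusted p = 4.33e-05). Cldn7 had 1.503, 2.82 and 21.03 CPM in month 12 CCl4 livers, against 0.0453, 0.225 and 0.497 CPM in month 12 oil livers. Both claudins were separated completely between the groups, and the Cldn7 range was stretched by replicate 6. Cldn7 rose by 4.60 in log2 terms (SE 0.82, adjusted p = 1.99e-05).

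The month 12 CCl4 livers did not share one level. Between the lowest and the highest of the 6 mice, Cldn7 varied 13.99-fold, Prom1 5.26-fold, Cftr 4.49-fold and Sox9 2.92-fold. Anxa13, Cldn4 and Pkhd1 varied between 2.15-fold and 2.22-fold, and Epcam varied 1.80-fold, the least. Replicate 6 had the highest level of 7 of the 8 genes, and replicate 5 that of Anxa13. Replicate 2 had the lowest level of 4 genes, yet its Prom1, 52.4 CPM, was the second highest after the 88.8 CPM of replicate 6.

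**Figure D2:**
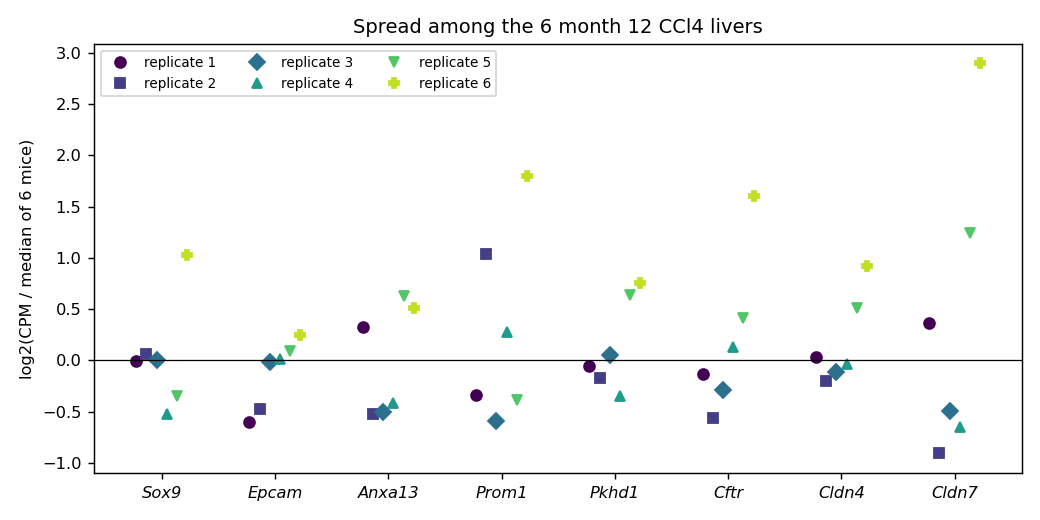
Level of each gene in each of the 6 month 12 CCl4 livers, as log2 of its CPM over the median of the 6; symbols mark the mice. Replicate 6 is the highest for 7 of the 8 genes, farthest for Cldn7 with 21.03 CPM, and replicate 2 is second for Prom1 with 52.4 CPM.

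Markers of other tissues were read in the same livers. The summed acinar level was lowest in replicate 6 (38.8 CPM) among the month 12 CCl4 livers, the mouse with the highest levels of 7 genes. Within other groups it went the other way in part: the mouse with the highest acinar sum had the highest level of 4 of the 8 genes in month 2 oil livers (replicate 2, 18740 CPM) and in month 12 oil livers (replicate 4, 30183 CPM), Epcam, Prom1 and Cldn7 among them in both. With month 2 CCl4 replicate 6 set aside, such a mouse also led 4 genes in month 2 CCl4 livers (replicate 5, 35379 CPM). In month 6 CCl4 livers it led 3 genes (replicate 1, 8964 CPM). In month 0 livers it led 1 gene, and the mouse with the lowest acinar sum led 3. With the acinar level as a covariate, added after the data were seen, the same number of genes, 7, was called at month 12. Of the 14 tested genes of the intestinal list, 4 were called higher at month 12 and 2 were called lower, beside 49.1% of all tested genes called. By edgeR, the 4 were Krt20 (log2 fold change 7.75, adjusted p = 0.000632), Cdh17 (4.74, adjusted p = 0.00285), Apoa4 (1.82, adjusted p = 0.000123) and Tff3 (1.99, adjusted p = 0.00913). The 2 called lower were Reg3b (-5.07, adjusted p = 0.00302) and Reg3g (-3.26, adjusted p = 0.0214). Cdh17, a cadherin of intestine, averaged 14.3 ± 30.3 CPM in month 12 CCl4 livers and 0.533 ± 0.387 CPM in month 12 oil livers (SD, n = 6 each), with 76.2 CPM in replicate 2 alone. Krt20 averaged 7.35 ± 10.2 CPM in month 12 CCl4 livers and 0.0301 ± 0.0737 CPM in month 12 oil livers (SD, n = 6 each). Each month 12 CCl4 liver exceeded each month 12 oil liver for Krt20. The intestinal factor Cdx1 and the mucin Muc2 had 0 counts in all 6 month 12 CCl4 livers, and Sis was at most 0.457 CPM in them and at most 1.17 CPM in month 12 oil livers.

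Of 5 tested genes that fetal liver and liver tumours express, 4 were called higher at month 12 (Afp, Gpc3, Igf2 and Scd2), beside 25.9% of all tested genes. Their list summed to between 250 and 1155 CPM in month 12 CCl4 livers and between 18.97 and 34.9 CPM in month 12 oil livers. The highest sum belonged to replicate 2 and the next, 594 CPM, to replicate 6, the same mice that led in Prom1. The part of these transcripts in the duct gene levels was not tested. Among 7 hepatocyte genes, 3 were called lower at month 12 and 0 higher, and among 7 mesothelial genes 1 was called lower and 0 higher. Beside these, 3561 of all 15338 tested genes were called lower, and 49.1% were called either way.

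At month 2 the calls rested on 1 library. With all 36 libraries, 4 of the 8 were called higher in CCl4 livers (10.4% of all tested genes were called, 7% higher): Epcam (log2 fold change 2.51, SE 0.67, adjusted p = 0.0129), Anxa13 (1.81, SE 0.55, adjusted p = 0.0291), Cftr (3.48, SE 0.97, adjusted p = 0.0176) and Cldn4 (2.58, SE 0.76, adjusted p = 0.0263). Cldn7 missed the threshold (2.23, SE 0.77, adjusted p = 0.0588). None of the 8 separated month 2 CCl4 livers completely from month 2 oil livers, a separation found for 4.64% of tested genes. Without month 2 CCl4 replicate 6, edgeR called 0 of the 8, with 0 at an unadjusted p below 0.05. Of all 15460 tested genes, 7.39% were then called and 3180 had an unadjusted p below 0.05. With that library kept, limma-voom called 0, beside 950 of all 15338 tested genes called higher and 462 lower. DESeq2 called 4, a set other than that of edgeR: Anxa13, Cftr, Cldn4 and Cldn7, with no adjusted p for Epcam. It called 1124 of all tested genes higher and 808 lower.

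In that library Epcam was at 33.2 CPM, while the other 5 month 2 CCl4 livers had 0.718, 1.13 and 1.69 CPM (lowest, median, highest) and month 2 oil livers had 0.501, 0.796 and 2.55 CPM. The other 5 CCl4 livers lay inside the range of the oil livers, with a log2 fold change of 0.08 (SE 0.37, adjusted p = 0.939). Cftr was at 13.9 CPM in it, between 0 and 0.226 CPM in the other 5 month 2 CCl4 livers, and between 0.0727 and 0.484 CPM in month 2 oil livers. Without it the Cftr log2 fold change was -1.12 (SE 0.59, adjusted p = 0.287), the opposite direction to that with it. Anxa13 was at 12.99 CPM in it, against 0.549 to 1.31 CPM in the other 5 month 2 CCl4 livers and 0.626 to 0.982 CPM in month 2 oil livers. Without it the Anxa13 log2 fold change was 0.04 (SE 0.28, adjusted p = 0.962). Cldn4 and Cldn7, at 1.92 and 7.47 CPM in it, had log2 fold changes of 0.58 (SE 0.60, adjusted p = 0.651) and 0.19 (SE 0.64, adjusted p = 0.912) without it.

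Prom1, Pkhd1 and Sox9 behaved otherwise in this library. Prom1 was at 8.67 CPM, above the 2.03 to 5.49 CPM of the other 5 month 2 CCl4 livers and below each month 12 CCl4 liver. Pkhd1, at 14.9 CPM, lay within the 14.8 to 17.8 CPM of the other 5 month 2 CCl4 livers, and Sox9, at 0.959 CPM, lay below their 1.37 to 2.13 CPM. Their log2 fold changes at month 2 were 0.70, 0.21 and -0.08 with the library and 0.37, 0.22 and 0.04 without it, none of them called. The ratio of Epcam to Pkhd1 CPM was 2.22 in it, against 0.109 to 0.205 in month 12 CCl4 livers and at most 0.201 in the other groups. The ratio of Epcam to Anxa13 was 2.56 in it, inside the 0.65 to 3.05 of month 2 oil livers, and the month 12 CCl4 livers lay apart with 0.0683 to 0.182.

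**Figure D3:**
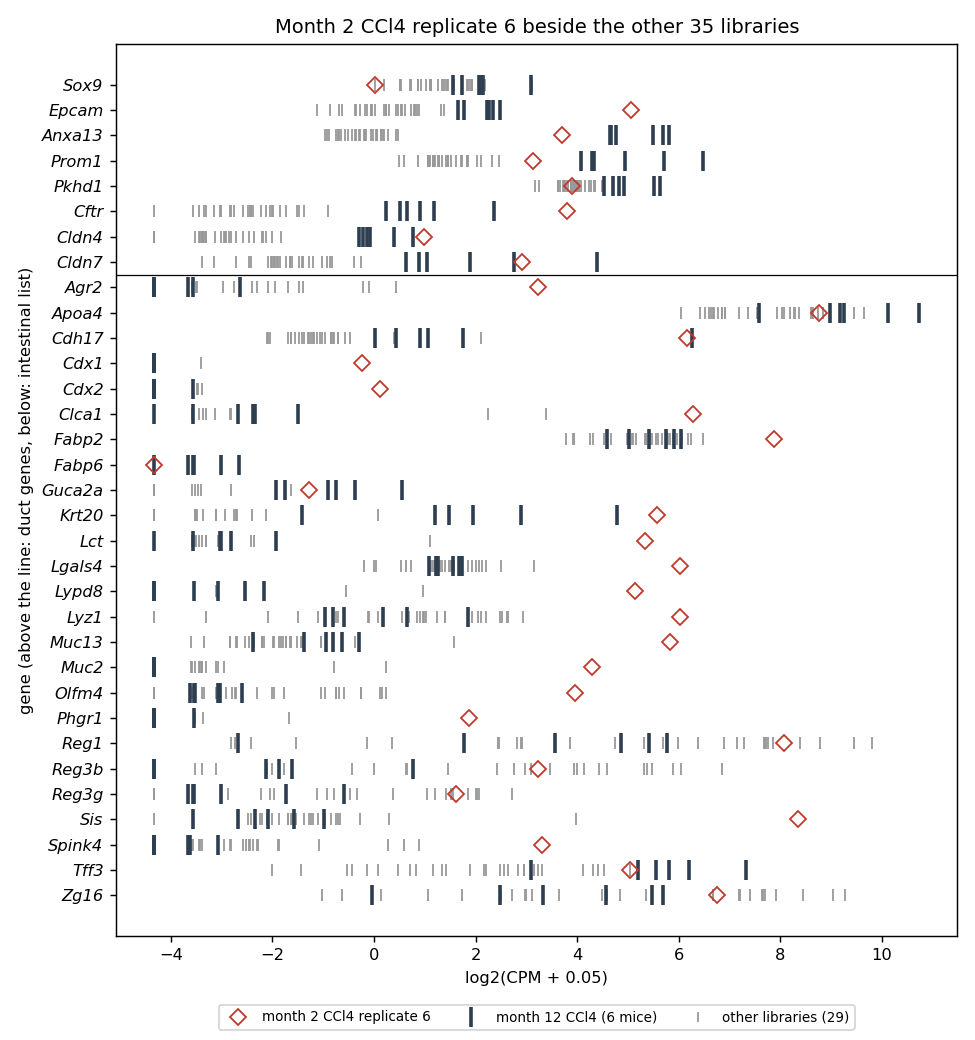
Month 2 CCl4 replicate 6 (open diamond) beside the 6 month 12 CCl4 livers (dark ticks) and the 29 other libraries (grey ticks), as log2(CPM + 0.05), for the 8 duct genes above the line and the intestinal list below it. The diamond lies at the right end for Epcam, Cftr, Cldn4 and 16 of 25 intestinal genes, such as Sis with 326 CPM, and within the other libraries for Pkhd1.

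The intestinal list moved with this library: 8 of its 14 tested genes were called higher at month 2 with it, and 1 higher and 2 lower without it. Of all tested genes, 1073 of 15338 were called higher and 518 lower with it. Without it 809 of 15460 were called higher and 334 lower. Cdx1 was at 0.799 CPM in it and at 0 in the other 5 month 2 CCl4 livers. Alb, the albumin of hepatocytes, was at 47483 CPM in it, against a median of 52745 CPM in the other 35 libraries. The part of intestinal transcripts in its duct gene levels was not tested.

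At month 6, Pkhd1 alone of the 8 genes was called against oil (11.4% of all tested genes were called, 7.71% higher). It had 14.7, 19.5 and 22.3 CPM (lowest, median, highest) in month 6 CCl4 livers, against 12.3, 13.7 and 15.1 CPM in month 2 oil livers and 8.99, 13.04 and 19.2 CPM in month 12 oil livers. The 6 month 6 CCl4 livers overlapped both oil groups. Pkhd1 rose by 0.46 in log2 terms (SE 0.14, adjusted p = 0.0239), and by 0.46 without month 2 CCl4 replicate 6 in the fit (adjusted p = 0.0269, with 11.1% of all tested genes called). The call was lost on leaving out replicate 1, 4 or 6 of month 6 CCl4, or replicate 1 or 3 of month 12 oil (0.38 to 0.44, adjusted p at most 0.0937) and with either oil group as the only reference.

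The other 7 genes had month 6 log2 fold changes between -0.25 (Prom1) and 1.14 (Cldn4), none called. Prom1 had 2.03, 2.24 and 2.83 CPM (lowest, median, highest) in month 6 CCl4 livers and 1.36, 2.60 and 4.97 CPM in month 12 oil livers, the CCl4 range lying within that of oil. Cldn4 had 25 counts over the 6 month 6 CCl4 livers and 9 over the 6 livers of each oil group. Its log2 fold change had an SE of 0.69 (adjusted p = 0.321), and without month 2 CCl4 replicate 6 in the fit an SE of 0.45 (adjusted p = 0.104). Anxa13, the gene with the largest change at month 12, had 0.495, 1.06 and 1.33 CPM in month 6 CCl4 livers and 0.475, 0.860 and 1.05 CPM in month 12 oil livers (log2 fold change 0.30, SE 0.50, adjusted p = 0.776).

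**Figure D4:**
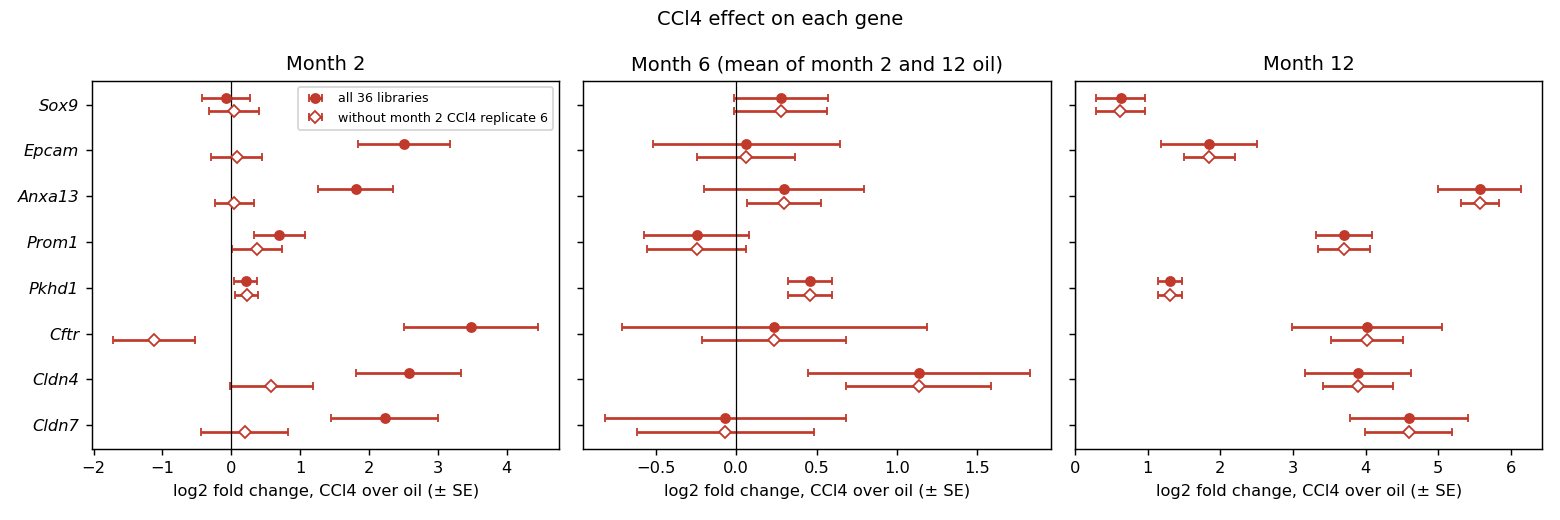
log2 fold change of CCl4 over oil (± SE) for each gene at months 2, 6 and 12, from the fit of all 36 libraries (filled circles) and without month 2 CCl4 replicate 6 (open diamonds); the x axes differ between panels. The Epcam estimate at month 2 is 2.51 with that library and 0.08 without it. The month 12 estimates nearly coincide, and their errors are smaller without it except for Pkhd1 (SE 0.161 with it and 0.163 without it).

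The change between CCl4 livers of different months was then tested directly. From month 6 to month 12 of CCl4, 7 of the 8 genes were called higher (39.2% of all tested genes were called, 20.6% higher), each with complete separation, which 8.59% of tested genes showed. Month 12 over month 6 CCl4 livers, the log2 fold change was 5.27 for Anxa13 (SE 0.55, adjusted p = 5.2e-09), 4.47 for Cldn7 (SE 0.80, adjusted p = 3.57e-05), 4.03 for Prom1 (SE 0.39, adjusted p = 8.08e-10) and 3.46 for Cftr (SE 0.96, adjusted p = 0.0045). It was 2.80 for Cldn4 (SE 0.64, adjusted p = 0.000693), 1.83 for Epcam (SE 0.65, adjusted p = 0.0248) and 0.85 for Pkhd1 (SE 0.16, adjusted p = 6.47e-05). Sox9 reached 0.72 (SE 0.34, adjusted p = 0.0879). Epcam lost its call without month 6 CCl4 replicate 1 (1.70, adjusted p = 0.0534). This comparison and the one with month 12 oil share the month 12 CCl4 livers.

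Between month 6 and month 2 CCl4 livers edgeR called 0 of the 8 genes (0.502% of all tested genes). An unadjusted p below 0.05 was found for 7 of them, beside 1395 of all 15338 tested genes. Of the 7, Sox9 alone was higher at month 6 (log2 fold change 0.73). DESeq2 called 1, beside 75 of all tested genes called higher and 44 lower. The limma-voom test called 0, beside 26 higher and 12 lower. Without month 2 CCl4 replicate 6, 0 of the 8 had an unadjusted p below 0.05, beside 1009 of all 15460 tested genes. The log2 fold change of month 6 over month 2 was then 0.03 for Epcam and 0.25 for Anxa13.

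Whether the CCl4 effect differed between months was tested as an interaction, the month 12 log2 fold change minus that of month 2. With all libraries 3 of the 8 genes were called, all with the larger effect at month 12 (21.3% of all tested genes were called, 11.2% higher): Anxa13 (difference 3.76, SE 0.78, adjusted p = 0.000616), Prom1 (3.00, SE 0.52, adjusted p = 6.89e-05) and Pkhd1 (1.10, SE 0.23, adjusted p = 0.000613). Without month 2 CCl4 replicate 6, 7 of the 8 were called (19.9% of all tested genes were called, 10.5% higher). The differences were then 5.53 for Anxa13, 5.14 for Cftr, 4.401 for Cldn7, 3.33 for Prom1, 3.31 for Cldn4, 1.77 for Epcam and 1.08 for Pkhd1. Epcam was the gene whose difference changed sign with that library (-0.66 with it, adjusted p = 0.664). Sox9 was called in neither fit (0.71 with it and 0.59 without it).

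The oil groups were also set against each other. Between month 12 and month 2 oil livers edgeR called 0 of the 8 (0.0717% of all tested genes). Sox9 alone had an unadjusted p below 0.05, beside 1753 of all 15338 tested genes. DESeq2 and limma-voom called 0 of the 8. Of all tested genes, DESeq2 called 70 higher and 70 lower, and limma-voom 8 higher and 9 lower. Month 12 oil livers had 2.10, 2.99 and 3.74 CPM of Sox9 (lowest, median, highest) and month 2 oil livers had 0.958, 1.71 and 2.92 CPM, a log2 fold change of 0.75 (SE 0.35, adjusted p = 0.402). Between month 2 oil and month 0 livers, where 31.3% of all tested genes were called and 16.4% were called lower, Sox9 alone was called, lower in month 2 oil livers. The 0.958, 1.71 and 2.92 CPM in month 2 oil livers stood against 1.39, 2.63 and 8.65 CPM in month 0 livers, a log2 fold change of -0.99 (SE 0.35, adjusted p = 0.0289). The 8.65 CPM came from month 0 replicate 4, and without it the fold change was -0.50 (adjusted p = 0.248). The call was also lost without month 2 oil replicate 1, 2 or 5. Ranked by the group median, month 12 CCl4 livers came first for all 8 genes, and among the other 5 groups the ranges of neighbours in the order overlapped for each gene.

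A list of 36 other cholangiocyte and ductular genes, 34 of them tested, was read in the same fit. At month 12, 18 were called higher and 2 lower in CCl4 livers, with a median log2 fold change of 0.53 against 0.01 for all tested genes, of which 49.1% were called and 25.9% were called higher. The 4 with the smallest p were Sox4 (log2 fold change 2.35, SE 0.21, adjusted p = 6.75e-11), a transcription factor of embryonic bile duct formation, Wfdc2 (3.68, SE 0.40, adjusted p = 4.8e-09), a secreted protease inhibitor, Mmp7 (5.25, SE 0.68, adjusted p = 1.42e-07), a matrix protease of injured epithelium, and Tspan8 (5.06, SE 0.66, adjusted p = 1.55e-07), a tetraspanin. The 2 that fell were Onecut1 (-1.64, SE 0.65, adjusted p = 0.0363), the hepatocyte nuclear factor 6 of liver and duct development, and Ano1 (-0.75, SE 0.24, adjusted p = 0.00923), a calcium-activated chloride channel. By role, 5 of 10 tested surface and junction genes, 5 of 7 transcription factors, 4 of 5 Notch pathway genes and 2 of 3 secreted proteins were called higher, with 1 of 4 cilium and cyst genes and 1 of 5 secretion and transport genes, the last 2 shares being no higher than the 25.9% of all tested genes.

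Markers of cholangiocytes in healthy liver differed among themselves. Spp1, the secreted osteopontin, rose by 3.24 (SE 0.45, adjusted p = 4.59e-07), and Cd24a, a surface protein of duct progenitors, by 1.94 (SE 0.38, adjusted p = 9.16e-05). The keratin Krt7 had 2.20, 3.10 and 4.55 CPM (lowest, median, highest) in month 12 CCl4 livers and 1.27, 2.14 and 4.32 CPM in month 12 oil livers (log2 fold change 0.47, SE 0.26, adjusted p = 0.142). Krt19 had 2.41, 3.43 and 4.65 CPM in month 12 CCl4 livers and 1.54, 3.81 and 13.03 CPM in month 12 oil livers (-0.37, SE 0.49, adjusted p = 0.561). The groups overlapped for both keratins. The secretin receptor Sctr was under the low-count filter and not tested, with 0.0693 to 0.496 CPM in month 12 CCl4 livers and 0 to 0.0456 CPM in month 12 oil livers, without overlap. Which cells carried the transcripts was not measured.

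**Figure D5:**
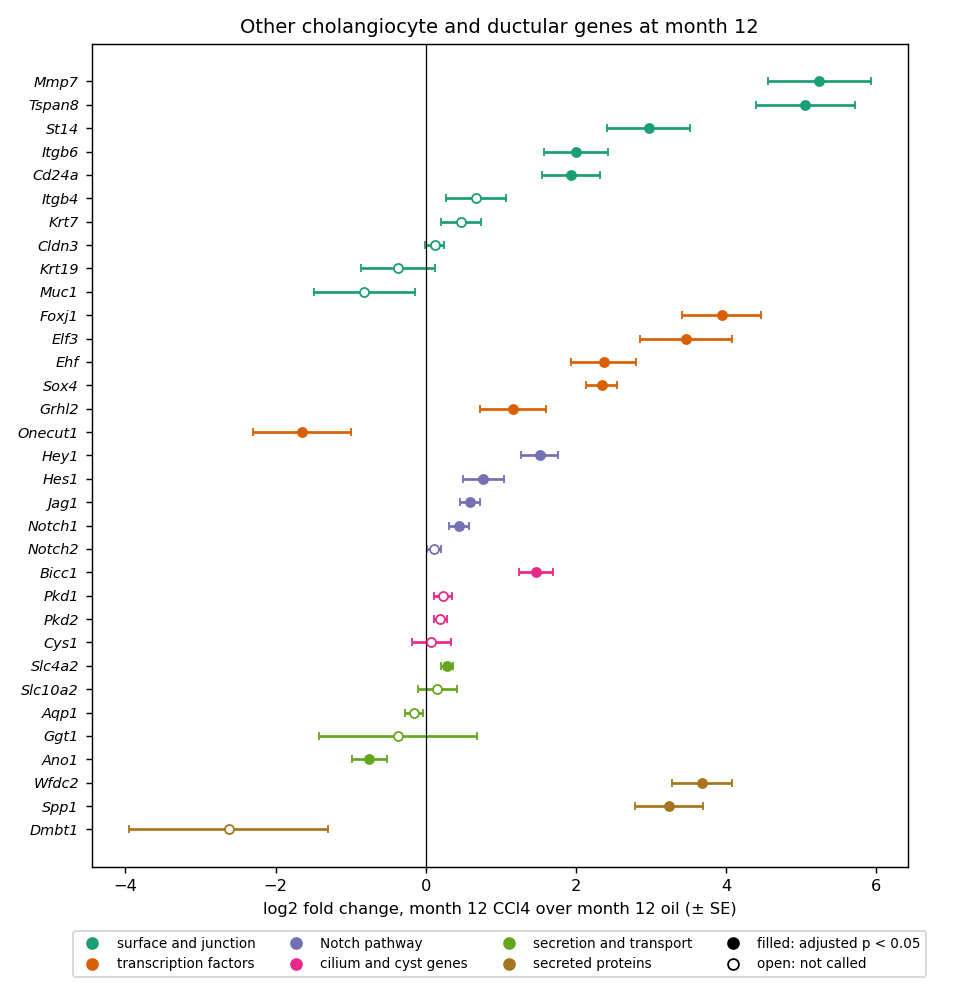
log2 fold change of month 12 CCl4 over month 12 oil livers (± SE) for tested other cholangiocyte and ductular genes, coloured by role; filled points were called. Mmp7 at 5.25 and Tspan8 at 5.06 lie farthest to the right, and Krt7 and Krt19 lie near 0 and were not called.

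At month 2, 4 genes of this list were called higher and 0 lower, a share of the list near the 10.4% of all tested genes called, namely Hey1 (log2 fold change 1.51, SE 0.25, adjusted p = 0.000125), a Notch target, Wfdc2 (1.83, SE 0.39, adjusted p = 0.00223), Sox4 (0.94, SE 0.21, adjusted p = 0.00285) and Mmp7 (3.00, SE 0.80, adjusted p = 0.0126). The median of the list was 0.49, against -0.00017 for all tested genes. Without month 2 CCl4 replicate 6 the list median was 0.27 and 3 were called, beside 7.39% of all tested genes: Hey1 (1.51, adjusted p = 0.000301), Wfdc2 (1.89, adjusted p = 0.003) and Sox4 (0.94, adjusted p = 0.00513). At month 6, 7 were called higher and 0 lower, beside 11.4% of all tested genes called, led by Wfdc2 (1.79, SE 0.31, adjusted p = 0.000189), Sox4 (0.91, SE 0.17, adjusted p = 0.000401), Hey1 (1.02, SE 0.21, adjusted p = 0.00115) and Mmp7 (2.35, SE 0.60, adjusted p = 0.00802), with a list median of 0.19. With all libraries these 4 were called at each of the 3 months, and without month 2 CCl4 replicate 6 Mmp7 was not called at month 2 (2.54, adjusted p = 0.0511). Wfdc2, for one, had 5.79, 7.36 and 9.55 CPM (lowest, median, highest) in month 2 CCl4 livers and 0.880, 2.11 and 3.24 CPM in month 2 oil livers, without overlap. The months 2 and 6 comparisons share the month 2 oil livers.

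Genes whose levels followed each member most closely over the 36 libraries were ranked by Spearman correlation of CPM among the 12360 tested genes whose mean reached 1 CPM, as a description. All points share the same libraries. For Sox9 the first was Kifc3 (0.81). The first and second were, for Epcam, Kcne3 (0.82) and Tspan8 (0.80), for Prom1 Spint1 (0.82) and Cdh17 (0.80), and for Anxa13 Mmp7 (0.78) and Ccdc34 (0.76). For Pkhd1 they were Sult2a2 (0.80) and Prrg4 (0.77), for Cftr Mgst3 (0.72) and Fmo2 (0.72), for Cldn4 Dnttip1 (0.77) and Slc6a8 (0.77), and for Cldn7 Mrgpre (0.78) and Cd24a (0.77). Over the 35 libraries without month 2 CCl4 replicate 6 the first gene was the same for all members except Cftr, for which it was Blvrb (0.72). Tspan8, Mmp7 and Cd24a are on the list of other duct genes, and Cdh17 is on the intestinal list.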

How the data were processed

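RNA-seq of 36 livers was analysed. The authors deposited raw counts as whole numbers for each gene symbol. Per the labels' protocols, TRIzol was used for extraction, rRNA was depleted and TruSeq stranded libraries were read from both ends. The submitters' processing notes name Biojupies, mm10, limma 3.44.3 and edgeR 3.30.3. The annotation, counter and strand setting are not given in the sources used here.

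Genes were filtered with filterByExpr, scaled by TMM and compared by quasi-likelihood F-tests (edgeR 4.0.16, R 4.3.3), with group means and all 36 libraries fitted together. Calls need an adjusted p (Benjamini-Hochberg) below 0.05 among the 15338 tested genes (15460 without month 2 CCl4 replicate 6), in each of 8 comparisons. SE is the fitted log2 change over the square root of F. The labels number the replicates and do not name the animals, so p-values measure the spread between these libraries. Over 90 replicate pairs, chi-square per degree of freedom was at least 18.1, so none was a copy.

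The 8 members and all lists were chosen with earlier results of these data known. Named are the members; of the other duct genes the 4 called with the smallest p and all called lower; the 2 genes most like each member. Some items under these rules are not reported here. The other tissue genes, Spp1, Cd24a, Krt7, Krt19 and Sctr were named after their values were seen. Positions are from GENCODE vM21 (GRCm38) by symbol, promoters from RefSeq GRCm38.p6. Alternatives were RLE size factors, library totals alone, other filters, DESeq2 1.42.0, limma-voom 3.58.1, the replicate number as a block, the compared groups only, other oil references, 4 libraries left out together, each library left out in turn and, added later, the acinar level as a covariate. On simulated data for the month 12 comparison (15162 genes), 72.4% of 2-fold and 94% of 4-fold changes were called, 0 with the wrong sign, and 6.25% of calls were unchanged genes.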

Additional observations from a re-analysis of the deposited data

Results flagged for a closer look

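Within each group of 6 mice, a liver was marked where it lay far from the other 5 for its group's range. This happened in 10 of the 48 combinations of gene and group, where chance gives about 1 in 20 for independent, normally distributed values. The 8 genes were read in the same libraries, so the 48 combinations are not independent and their count cannot be set against that rate. Of these, 5 belonged to month 2 CCl4 replicate 6, the library with the highest level of 16 of 25 intestinal genes: Epcam at 33.2 CPM, Cftr at 13.9 CPM, Anxa13 at 12.99 CPM, Cldn7 at 7.47 CPM and Cldn4 at 1.92 CPM. Another 3 belonged to month 12 CCl4 replicate 6, with Cldn7 at 21.03 CPM, Sox9 at 8.50 CPM and Cftr at 5.10 CPM. The remaining 2 were Sox9 in month 0 replicate 4 at 8.65 CPM and Cldn7 in month 2 oil replicate 2 at 0.792 CPM.

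The effect of CCl4 differed between month 12 and month 2 by the test of the difference for Anxa13 (3.76 on the log2 scale), Prom1 (3.00) and Pkhd1 (1.10). Without month 2 CCl4 replicate 6 the difference was called for 7 of the 8 genes, with 5.53 for Anxa13, 3.33 for Prom1 and 1.08 for Pkhd1.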

How the results depend on the processing

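At month 12 against oil, 7 of the 8 genes were called in 7 of the 9 planned settings other than leaving out 1 library, and with the acinar covariate. Library totals alone called 8, DESeq2 called 6 and gave Epcam no adjusted p in any comparison, and leaving out 1 library gave 6 to 7. Month 12 against month 6 CCl4 gave 6 to 8 over the settings and 7 without any 1 library, and month 12 against month 2 oil gave 0 throughout. At month 2 the count of 4 was 0 with limma-voom, with the replicate block, in the compared groups only and without the 4 libraries, and 0 to 5 on leaving out 1 library. Of all tested genes, 999 were called higher and 478 lower with the replicate block. In the compared groups only they were 1365 and 817 of 14187, and without the 4 libraries 540 and 344 of 15612. In the compared groups only, Cftr, Cldn4 and Cldn7 were under the low-count filter at month 2 and not tested. The same held at month 6 against oil, for month 6 against month 2 CCl4 and for month 12 against month 2 oil. At month 6 the count of 1 was 0 without the 4 libraries and with month 2 or month 12 oil as the only reference, and 0 to 1 without 1 library. The interaction count of 3 was 7 without the 4 libraries, 3 to 7 without 1 library, and 4 with limma-voom and with the replicate block. For all tested genes, limma-voom called 1518 higher and 1574 lower there. These counts were 1615 and 1492 with the replicate block, and 1528 and 1317 of 15612 without the 4 libraries. For month 6 against month 2 CCl4 the count of 0 was 1 with DESeq2 and 0 to 2 without 1 library. For month 2 oil against month 0 the count of 1 was 0 with library totals, with limma-voom, in the compared groups only and without the 4 libraries, and 0 to 1 without 1 library. Other duct genes called numbered 11 at month 2 and 16 at month 6 with library totals, and 3 at month 6 against month 12 oil. Without 1 library they were 3 to 7 at month 2 and 4 to 9 at month 6. With library totals, 3160 of all 15338 tested genes were called higher and 179 lower at month 2. These counts were 8884 and 177 at month 6, and 10331 and 592 at month 12. Against month 12 oil alone, 657 of all tested genes were called higher and 458 lower at month 6. The median gene moved by 0.20, 0.31 and 0.56 at months 2, 6 and 12 with library totals.

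Directions turned for called Cftr at month 2 and otherwise for values not called, of which the Epcam interaction became a call in the other direction. At month 2 Sox9 was 0.10 with library totals and -0.20 to 0.12 without 1 library, and Cftr was -0.093 with limma-voom, -0.45 without the 4 libraries and -1.12 to 3.90 without 1 library. At month 6 Sox9 was -0.096 against month 12 oil, Prom1 0.078 with library totals, Epcam -0.035 with the replicate block and -0.045 to 0.26 without 1 library, and Cftr -0.091 against month 2 oil and -0.13 with the acinar covariate. Cldn7 at month 6 was 0.26 with library totals, 0.031 with limma-voom, 0.11 without the 4 libraries, 0.13 against month 12 oil and -0.26 to 0.16 without 1 library. The Epcam interaction was 1.02 with limma-voom, 0.23 with the replicate block, 1.43 without the 4 libraries (adjusted p = 0.0452) and -1.06 to 1.77 without 1 library (1.77 without month 2 CCl4 replicate 6, adjusted p = 0.0121). The cause was not tested. Replicate numbers did not pair the libraries: the correlation of deviations between same-numbered libraries ran from -0.46 to 0.47 over 90 pairs, and 3 of 36 libraries correlated best with their own number. The 4 libraries, chosen with earlier results of these data known, were replicates 1 and 6 of month 2 CCl4 and replicate 2 of each oil group. Fold changes were compared across settings for all members at months 2, 6 and 12 and in the interaction, and elsewhere for called ones. Cftr and Cldn4, with at most 30 counts over an oil group, are limited by depth.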
